A study of Mus musculus with 36 samples.

Results

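Interferon gamma and 7 GTPases that it induces were followed across a dose series of titanium dioxide nanoparticles in mouse lung. The 8 genes are Ifng, the guanylate-binding proteins Gbp2, Gbp3 and Gbp5, and the immunity-related GTPases Irgm1, Igtp, Iigp1 and Ifi47. They were found by gene symbol, through the RefSeq accession of each array probe. The rule uses no measured value, but the list was drawn up with earlier results of these data known. All 8 of 8 were found among 36799 gene names on the array, and all 8 passed the filter on dim probes that 23256 genes passed. Female C57BL/6 mice of 5 to 7 weeks received a single intratracheal instillation of 40 µl that held 0, 18, 54 or 162 µg of Tube TiO2NPs, and lung RNA was taken at day 1 or day 28. The groups at day 1 held 4 mice at 0 µg (control), 3 at 18 µg, 3 at 54 µg and 4 at 162 µg. The day 28 groups were 3 control mice and 4 mice for every other dose. The strain, sex, route and volume were shared by all groups, and what the 0 µg suspension held besides particles is not given in the sources used here. RNA came from random sections of whole lung, so fewer cells of a type and less RNA per cell cannot be told apart. Values are log2 ratios of lung RNA (Cy5) over a reference RNA of 11 mouse cell lines (Cy3). The same probe is compared between groups, and levels are not compared between genes.

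Interferon gamma is the type II interferon, secreted mainly by natural killer (NK) cells and T cells. It binds the receptor IFNGR1/IFNGR2, and signalling through the kinases JAK1 and JAK2 acts on GAS elements in target promoters and induces IRF1. Type I interferons bind another receptor and act mainly on interferon-stimulated response elements (ISREs). Many genes, the interferon-inducible GTPases among them, can answer to both. Guanylate-binding proteins coat vacuoles and bacteria and promote inflammasome activity. Irgm1 and Igtp (Irgm3) are regulatory members that keep effector GTPases off the membranes of the cell itself, while Iigp1 (Irga6) and Ifi47 (Irgd) are effector members, of which Iigp1 disrupts the vacuoles of intracellular parasites. In resting lung these genes are expressed at a basal level, and they are known as markers of interferon exposure.

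Lung epithelium markers were present in every sample: 9 of 9 tested, among them Sftpc, Scgb1a1 and Ager, were above background on 36 of 36 arrays. On 12 of the 36 arrays skeletal muscle transcripts stood apart, with a mean log2 Cy5 over the muscle markers of 10.53 to 15.11 against 6.67 to 7.51 on the other 24, and these are called muscle arrays here. A muscle array was present for 4 of 4 control mice at day 1 (3 of them had no other array) but for 1 of 4 mice at 162 µg at day 1 (replicate 3). It was present for 3 of 4 mice at 54 µg at day 28, and for 0 of 3 control and 0 of 4 mice at 162 µg at day 28. Day 28, 162 µg against control, is therefore the comparison without muscle arrays on either side. In that group, replicate 1 has labels that conflict, its titles naming day 1 and its time label day 28, and it was kept in day 28. Its 2 arrays differed by 0.72 to 1.23 on the log2 scale for the 7 GTPases, more for 7 of 8 members than any of the other 6 pairs of repeat arrays. Over all tested genes the median absolute difference of its arrays was 0.16, within the 0.15 to 0.24 of the other pairs. The members' calls, their group order and the count of type I interferon targets called at 162 µg and day 28 are given with and without this mouse, or with 1 of its arrays. So are the raw correlations of the mean of the 7 GTPases with other means and with Ifng. Calls of other genes and all other correlations include this mouse.

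All 7 GTPases had their highest group mean at 162 µg and day 28. The lowest group mean was that of the day 1 control for Gbp2, Gbp3, Igtp, Irgm1, Iigp1 and Ifi47, and for Gbp5 that of the day 28 control (1.63 ± 0.22, SD, n = 3), next to the day 1 control (1.63 ± 0.16, n = 4). The mice of the first group did not overlap those of the next group for 3 members. For Gbp3 the mice at 162 µg and day 28 (lowest 2.39) did not overlap those at 162 µg and day 1, the next group (mean 1.97 ± 0.37, n = 4), although the highest of these also rounds to 2.39. For Igtp the next group was also 162 µg at day 1, and for Ifi47 it was the day 28 control. All other neighbours in the order of the 8 groups had overlapping mice, for every member. Without the mouse of conflicting labels all 7 GTPases kept their highest mean at 162 µg and day 28, and 6 of 7, all but Gbp2, did not overlap the next group. That leaves 3 mice in the first group, and groups of fewer mice separate more easily. The share of all genes without such overlap was not computed, with or without this mouse, so these counts have no background. Ifng was ordered differently, with its highest mean in the day 28 control group (0.72 ± 0.25, n = 3) and its lowest at 54 µg at day 28 (0.31 ± 0.23, n = 4). The plot of each mouse's values shows these levels.

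**Figure D1:**
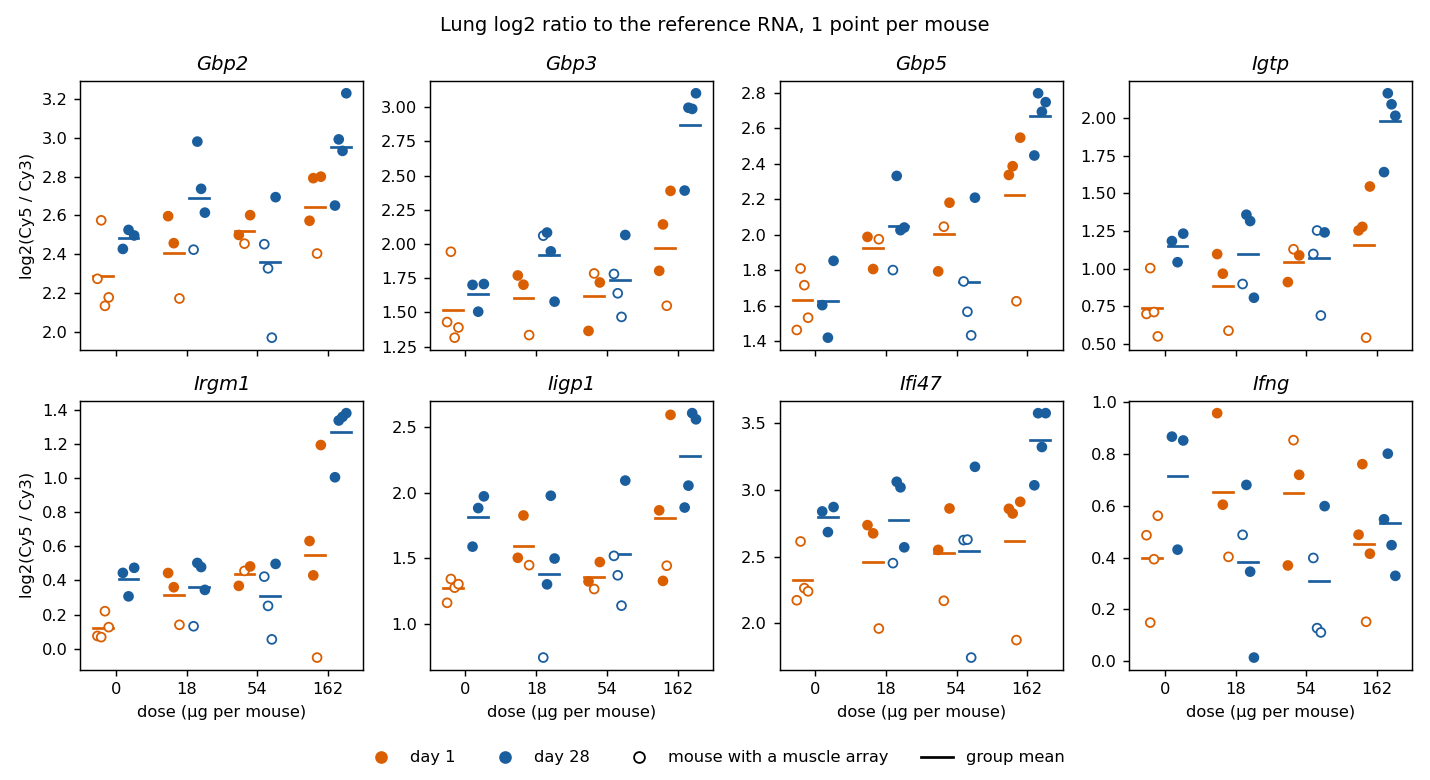
Log2 ratio of lung RNA over reference RNA for each of the 8 genes (1 panel per gene, each with its own vertical scale), by dose on the horizontal axis. Each point is 1 of 29 mice, orange at day 1 and blue at day 28, open where the mouse had a muscle array, and bars are group means. In 7 panels the 162 µg group at day 28 has the highest mean, while for Ifng it lies at 0.53, below the day 28 control mean of 0.72.

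The promoters of the 5 members that hold an ISRE core are shown: the 4 that rose at day 28, and Gbp2, which did not pass the test. RefSeq promoter sequences (build GRCm38.p6, 250 bases before to 50 bases after an annotated start) matched 7 of the 8 members, in 8 windows, with Iigp1 having no entry. Each was searched on both strands for the ISRE core, GAAA followed after any 2 bases (N) by GAAA, and for the GAS element TTCNNNGAA, and the 2 motifs overlapped in none of the members. Capitals below mark matches to either motif, and a match read on the opposite strand appears as its reverse complement.
Gbp3, chr3:142559794-142560093, plus strand: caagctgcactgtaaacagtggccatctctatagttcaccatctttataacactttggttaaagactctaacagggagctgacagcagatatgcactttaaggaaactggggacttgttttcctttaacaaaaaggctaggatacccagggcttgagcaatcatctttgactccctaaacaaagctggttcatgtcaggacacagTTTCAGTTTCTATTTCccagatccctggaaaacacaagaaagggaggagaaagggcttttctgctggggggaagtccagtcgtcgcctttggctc
Gbp5, chr3:142496684-142496983, plus strand: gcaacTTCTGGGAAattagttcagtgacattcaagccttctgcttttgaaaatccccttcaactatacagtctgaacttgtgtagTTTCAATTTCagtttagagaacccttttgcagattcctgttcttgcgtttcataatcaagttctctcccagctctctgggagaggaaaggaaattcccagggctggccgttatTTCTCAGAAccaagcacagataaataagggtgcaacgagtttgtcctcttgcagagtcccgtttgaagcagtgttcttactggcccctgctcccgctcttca
Irgm1, chr11:48871371-48871670, minus strand: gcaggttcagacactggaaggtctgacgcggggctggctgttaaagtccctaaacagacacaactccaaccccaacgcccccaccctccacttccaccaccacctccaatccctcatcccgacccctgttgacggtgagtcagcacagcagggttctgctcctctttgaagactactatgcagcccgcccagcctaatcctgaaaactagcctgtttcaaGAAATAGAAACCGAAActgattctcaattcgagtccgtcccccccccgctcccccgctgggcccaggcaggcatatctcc
Igtp, chr11:58199306-58199605, plus strand: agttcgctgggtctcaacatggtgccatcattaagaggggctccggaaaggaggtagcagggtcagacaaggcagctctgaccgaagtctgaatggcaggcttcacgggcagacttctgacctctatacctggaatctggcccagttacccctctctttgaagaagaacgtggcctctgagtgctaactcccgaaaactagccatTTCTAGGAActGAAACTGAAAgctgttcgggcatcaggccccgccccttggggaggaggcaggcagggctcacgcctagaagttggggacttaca
Gbp2, chr3:142620413-142620712, plus strand: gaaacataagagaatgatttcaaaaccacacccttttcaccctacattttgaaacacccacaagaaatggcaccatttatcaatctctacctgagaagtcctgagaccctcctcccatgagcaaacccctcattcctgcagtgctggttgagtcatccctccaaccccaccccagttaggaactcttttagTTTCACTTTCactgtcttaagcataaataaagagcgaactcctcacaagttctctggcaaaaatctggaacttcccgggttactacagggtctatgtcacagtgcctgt
An ISRE core was found in 5 of 7 members (71.4%) against 3.99% of 27025 genes with a promoter entry. It lay 45 bases before the start in Gbp3, 165 in Gbp5, 30 in Irgm1, 34 in Igtp and 59 in Gbp2, counted at its first base. Gbp3 and Irgm1 held 2 overlapping matches each. A GAS element was found in 3 of 7 members (42.9%) against 9.55% of all genes: Gbp5 held 2, Igtp 1 that starts 11 bases ahead of its ISRE core, and Ifng 1 near the far end of its window. Ifi47 and the second annotated start of Gbp3 held neither. Among type I interferon targets with an entry, 9 of 17 held an ISRE core and 3 of 17 a GAS element. Among other interferon-inducible GTPases it was 6 of 8 and 4 of 8, and among other genes induced by interferon gamma 1 of 10 and 2 of 10. A match is a string of letters in this window and says nothing of binding.

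At day 28, 4 of the 8 members rose at 162 µg against control: Gbp3, Gbp5, Irgm1 and Igtp. All 4 carry the ISRE core shown above, as does Gbp2, which did not pass the test. Over all genes tested 0.632% were called in this comparison, and 0.623% were called higher (145 genes), by limma with Benjamini-Hochberg adjustment at an adjusted p under 0.05. The members' 4 of 8 stands beside that background, but the list was drawn up with earlier results of these data known. The other 3 GTPases were higher without passing, and Ifng was lower without passing. The median change over the 8 members was 0.70, against 0.00062 over all tested genes.

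Among the guanylate-binding proteins, Gbp3 had the largest change. Its values in the control mice were 1.70, 1.51 and 1.71, and at 162 µg they were 2.39, 3.00, 2.99 and 3.10. All 4 treated mice were above all 3 controls, with the lowest of them the mouse of conflicting labels. Gbp3 rose 2.35-fold (log2 change 1.23, SE 0.20, 95% CI 0.82 to 1.65, adjusted p = 0.0018), the 32nd lowest p of all genes tested. Gbp5, which promotes NLRP3 inflammasome assembly, was at 1.60, 1.42 and 1.85 in controls and at 2.45, 2.80, 2.69 and 2.75 at 162 µg. Its groups did not overlap either, and it rose 2.06-fold (log2 change 1.04, SE 0.19, adjusted p = 0.00418). Gbp2, which acts on pathogen vacuoles and bacterial membranes, was at 2.43, 2.53 and 2.50 in controls and at 2.65, 2.99, 2.93 and 3.23 at 162 µg. Its mice did not overlap, but the change did not pass (log2 change 0.47, SE 0.16, 95% CI 0.14 to 0.80, adjusted p = 0.446).

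Both regulatory immunity-related GTPases among the members rose. Irgm1, whose loss in mice leaves macrophages poor at clearing bacteria, was at 0.44, 0.31 and 0.47 in controls and at 1.01, 1.34, 1.36 and 1.38 at 162 µg. It rose 1.82-fold (log2 change 0.86, SE 0.18, adjusted p = 0.0154). Igtp was at 1.18, 1.04 and 1.23 in controls and at 1.64, 2.17, 2.09 and 2.02 at 162 µg. It rose 1.77-fold (log2 change 0.83, SE 0.20, adjusted p = 0.0481), close to the threshold. For both genes the groups did not overlap and the lowest treated mouse was again replicate 1.

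The effector GTPases among the members did not pass. Regulatory and effector members were not tested against each other. Ifi47 was at 2.84, 2.68 and 2.87 in controls and at 3.03, 3.57, 3.32 and 3.57 at 162 µg, with no overlap (log2 change 0.58, SE 0.28, 95% CI 0.01 to 1.15, adjusted p = 1). Iigp1 was at 1.59, 1.88 and 1.97 in controls and at 1.89, 2.05, 2.61 and 2.56 at 162 µg, where 3 of 4 treated mice were above all controls (log2 change 0.46, SE 0.27, 95% CI -0.09 to 1.02, adjusted p = 1). A second probe of Iigp1 gave a larger change (0.75, SE 0.29), and a second probe of Irgm1 one of 0.80 (SE 0.24). In all, 6 of 8 members had every treated mouse above every control mouse, against 5.92% of all genes with values in each mouse. Without the mouse of conflicting labels it was 7 of 8, all but Ifng, but with 3 treated mice left the share of all genes was not computed.

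Ifng, the ligand, was not called in any comparison. At day 28 it was at 0.87, 0.43 and 0.85 in the controls and at 0.55, 0.80, 0.45 and 0.33 at 162 µg, with 0 of 4 treated mice above the highest control. Its log2 change was -0.18 (SE 0.18, 95% CI -0.55 to 0.18, adjusted p = 1). A rise as large as that of any of the 4 GTPases called lies outside this interval, but the interval holds for this background correction and the probe is dim. With the scanner's processed signals the change was -0.83, and over the other alternatives it was -0.33 to -0.11. The probe had a mean log2 Cy5 of 6.49 to 6.93 per group, and it was above background on 4 of 4 control and 5 of 5 arrays at 162 µg at day 28. NK cell markers, which stand for one source of Ifng, were higher in 0 of 9 and none passed (median change -0.43). Their mean log2 ratio was 2.08 to 2.43 in the control mice and 1.77 to 1.92 at 162 µg. This was not particular to 162 µg: the group means at day 28 were 1.92 at 18 µg, 1.78 at 54 µg and 1.85 at 162 µg. The day 28 control mean, 2.26, was the highest of the 8 groups. T cell markers were higher in 7 of 8 and none passed (median 0.16). Macrophage markers were higher in 8 of 10, of which Cd68 (0.80) and Siglec1 (1.35), a lectin that is itself interferon-inducible, rose, and their mean was 1.85 to 1.97 in control mice and 2.13 to 2.62 at 162 µg. The part of these cell markers in the GTPases' rise was not tested.

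**Figure D2:**
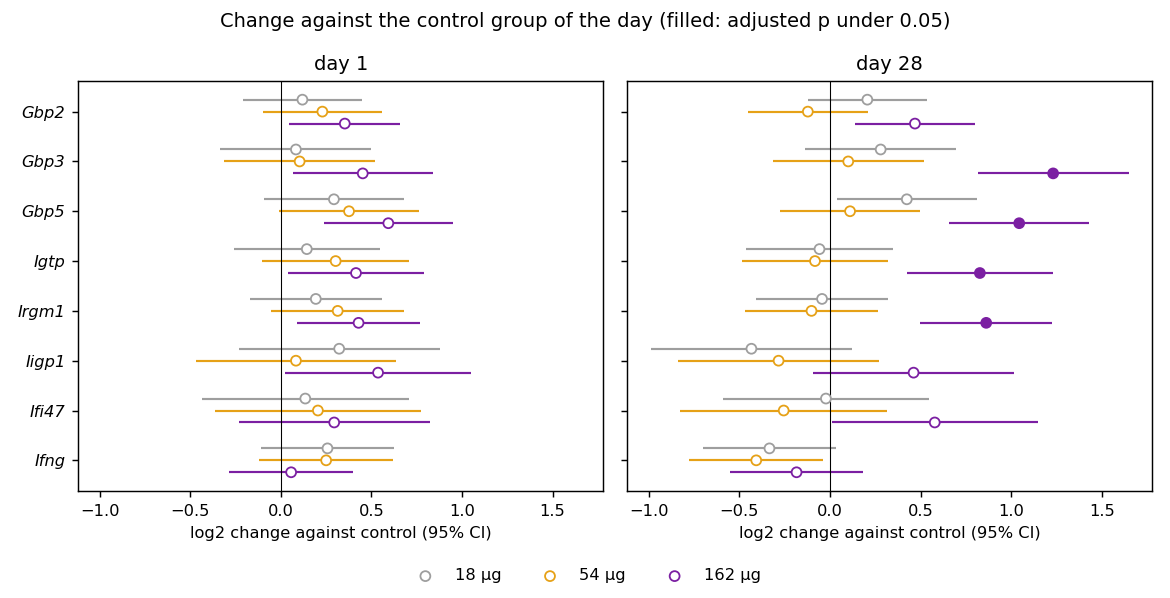
Log2 change of each gene against the control group of its day, at day 1 (left) and day 28 (right), with 95% confidence intervals from the limma fit. Grey, yellow and purple points are 18, 54 and 162 µg, and filled points passed an adjusted p of 0.05. Filled points are found at 162 µg and day 28 for Gbp3 (1.23), Gbp5 (1.04), Irgm1 (0.86) and Igtp (0.83).

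The day 28 rise was not spread evenly over the doses. At 18 µg and at 54 µg 0 of 8 members were called, as were 0 of all genes tested (0% each), and the unadjusted p was under 0.05 for Gbp5 at 18 µg (0.42, adjusted p = 0.892) and for Ifng at 54 µg (-0.41, adjusted p = 0.749). In 0 of 8 members were all treated mice above all controls at 18 µg (1.91% of all genes) or at 54 µg (2.97%). Gbp3, for example, was at 2.06, 2.08, 1.95 and 1.58 at 18 µg and at 1.78, 1.64, 1.47 and 2.07 at 54 µg, which overlap the controls. Its intervals were -0.14 to 0.70 at 18 µg and -0.32 to 0.52 at 54 µg. A change as large as the one at 162 µg lies outside both. At 54 µg, however, 3 of 4 mice had muscle arrays, against 0 of 3 controls. Dose and muscle content cannot be told apart there, and the trend below uses these mice too. The 54 µg mouse without a muscle array, replicate 4, was above every control for each GTPase (Gbp3 at 2.07, Gbp5 at 2.21). A straight trend over the 4 dose groups was called for 0.507% of all genes (0.499% upward) and for 3 of 8 members, all upward. The slope per dose step was 0.35 for Gbp3 (SE 0.06, adjusted p = 0.00511), 0.28 for Gbp5 (adjusted p = 0.0204) and 0.25 for Irgm1 (adjusted p = 0.03). The step from 54 to 162 µg, a comparison added after the data were seen, was called for 1.02% of all genes (1.01% higher) and again for Gbp3 (1.13), Irgm1 (0.96), Gbp5 (0.93) and Igtp (0.91), with adjusted p of 0.00181 to 0.00873. Igtp lost this call without 54 µg replicate 3 or 162 µg replicate 2 (adjusted p = 0.0635 and 0.0545), and Gbp2 gained one without 54 µg replicate 4 or 162 µg replicate 1, as did Ifi47 without 54 µg replicate 4 (1.04, adjusted p = 0.0375). That step sets 3 of 4 mice with muscle arrays against none, and without muscle arrays, with 1 mouse left at 54 µg, 0 members were called (Gbp3 0.80, adjusted p = 0.518).

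Several results at day 28 rest on few mice. Gbp3 kept its call at 162 µg against control when any 1 mouse was left out. Gbp5 lost it without control replicate 2 (adjusted p = 0.0612). Irgm1 and Igtp lost it without any of the 3 controls or any of replicates 2, 3 and 4 at 162 µg, with adjusted p of 0.0502 to 0.126 for Irgm1 and 0.119 to 0.295 for Igtp, while their changes stayed at 0.76 or more. In the trend, without control replicate 2 Gbp3 was no longer called (adjusted p = 0.0555), Gbp5 without control replicates 1 or 2 or any of replicates 2, 3 and 4 at 162 µg, and Irgm1 without any of these 6 mice of control and 162 µg other than replicate 1 at 162 µg. Without replicate 1 at 162 µg, the mouse of conflicting labels, all 4 kept their calls and the changes were larger (Gbp3 1.39, Gbp5 1.12, Irgm1 0.95, Igtp 0.94). Its arrays read differently, however. On the array listed first, Gbp3 was at 1.78, Gbp5 at 2.07, Irgm1 at 0.40 and Igtp at 1.17, and Irgm1 and Igtp were below the highest control there. On the repeat array they were at 3.00, 2.83, 1.61 and 2.11, all above the highest control. With the first array alone, 1 member was called (Gbp5, adjusted p = 0.0468) and Gbp3 was not (1.08, adjusted p = 0.0716), and with the repeat array alone 4 were called. Each of the 3 slide sets that held both groups had 1 treated and 1 control mouse. In 1 of these sets the treated mouse was replicate 1, with its arrays averaged. Within each set the change was above 0 for all 7 GTPases, at 0.69 to 1.48 for Gbp3 and 0.84 to 1.27 for Gbp5. It was 0.56 to 1.05 for Irgm1 and 0.46 to 1.05 for Igtp, and Ifng was above 0 in 1 of 3 sets. With the slide set as a block Igtp lost its call (0.79, adjusted p = 0.0925), and the other 3 kept theirs.

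At day 1, 0 of 8 members were called at 162 µg against control, where 1.7% of all genes were called and 1.5% were called higher. All 8 changes were above 0, with a median of 0.42 against 0.0063 over all genes, and 6 of the 7 GTPases had an unadjusted p under 0.05, as did 12.9% of all genes. Gbp5 came nearest. It was at 1.46, 1.81, 1.72 and 1.53 in controls and at 2.34, 2.39, 1.63 and 2.55 at 162 µg (log2 change 0.59, SE 0.17, 95% CI 0.24 to 0.95, adjusted p = 0.0878). 3 of 4 treated mice were above all controls and replicate 3, whose array held muscle transcripts, was not. In 0 of 8 members were all treated mice above all controls, against 4.2% of all genes.

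The same mouse was low for the other GTPases. Irgm1 was at 0.07, 0.07, 0.22 and 0.13 in controls and at 0.63, 0.43, -0.05 and 1.19 at 162 µg (0.43, SE 0.16, adjusted p = 0.239), and Igtp at 0.70, 1.00, 0.71 and 0.55 and at 1.25, 1.28, 0.54 and 1.55 (0.41, adjusted p = 0.329). Gbp3 was at 1.43, 1.94, 1.32 and 1.39 in controls and at 1.80, 2.14, 1.55 and 2.39 at 162 µg (0.45, adjusted p = 0.291). The log2 change of Gbp2 was 0.35 (adjusted p = 0.303), that of Iigp1 0.54 (adjusted p = 0.361) and that of Ifi47 0.29 (adjusted p = 0.689). Replicate 3 was the lowest of the 4 treated mice for 6 of the 7 GTPases, the exception being Iigp1. Without replicate 3, Gbp5 (0.79, adjusted p = 0.00363), Irgm1 (0.63, adjusted p = 0.0122) and Igtp (0.62, adjusted p = 0.0341) were called. The share of all genes called in that fit is not given here.

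Muscle arrays moved with this comparison, being present for 4 of 4 control and 1 of 4 treated mice. In control replicate 1, measured on 1 muscle array and 1 other array, the muscle array was lower by 0.24 for Gbp2, 0.31 for Gbp3, 0.37 for Igtp, 0.33 for Iigp1 and 0.58 for Ifi47 and higher by 0.06 for Gbp5 and 0.01 for Irgm1. Without muscle arrays, with 1 control array left, the change of Gbp5 was 0.99 and passed (adjusted p = 0.0199) and no other member did. With muscle and squamous levels as covariates 0 members were called, and the changes were smaller, with Gbp5 at 0.47 (adjusted p = 0.0894) and Ifi47 at 0.03. Within the 162 µg group the mouse with a muscle array was lower than the mean of the other 3 for all 7 GTPases, by 0.32 (Gbp2) to 0.99 (Ifi47). Within the control group the 3 mice with muscle arrays alone averaged higher than the fourth for all 7, by 0.02 (Gbp2) to 0.22 (Gbp5). The fourth is replicate 1, whose value averages its muscle array and its other array. Against that other array alone, the mean of the 3 was lower for Gbp2, Gbp3, Igtp, Iigp1 and Ifi47 and higher for Gbp5 and Irgm1. Ifng was at 0.49, 0.15, 0.39 and 0.56 in controls and at 0.49, 0.76, 0.15 and 0.42 at 162 µg, which overlap throughout (0.06, SE 0.17, 95% CI -0.29 to 0.40). At 18 µg 0 of 8 members and 0% of all genes were called at day 1, and at 54 µg 0 of 8 against 0.0516% of all genes. The largest member changes were 0.32 for Iigp1 at 18 µg and 0.38 for Gbp5 at 54 µg (adjusted p = 0.668). All treated mice were above all controls for 1 of 8 members at 18 µg (Iigp1, against 3.7% of all genes) and for 1 of 8 at 54 µg (Irgm1, against 5.34%). The dose trend at day 1 was called for 2.58% of all genes (2.23% upward) and for 0 members, with Gbp5 at 0.19 per step (adjusted p = 0.0763).

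The difference between the days was tested itself. For 162 µg against control, day 28 minus day 1, 0 of 8 members were called against 0.0258% of all genes. The difference was 0.78 for Gbp3 (SE 0.27, 95% CI 0.21 to 1.35, adjusted p = 0.916), 0.45 for Gbp5 (SE 0.25), 0.43 for Irgm1 (SE 0.24) and 0.41 for Igtp (SE 0.27). It was -0.07 for Iigp1 (SE 0.37) and -0.24 for Ifng (SE 0.24). Without the mouse of conflicting labels 0 members were called, with Gbp3 at 0.94 (adjusted p = 0.571). The difference in trend was called for 0.086% of all genes and for 0 members. The rise at day 28 is thus not shown to differ from the changes at day 1. Between the control groups of the 2 days, 0 genes were called (0%), and 7 of 8 members were higher at day 28, by 0.54 for Iigp1, 0.48 for Ifi47 and 0.41 for Igtp (adjusted p = 0.777 each), while Gbp5 differed by -0.0049. An unadjusted p under 0.05 was found for 1 of the 7 GTPases, Igtp. These groups also differ in muscle arrays, 4 of 4 mice against 0 of 3.

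Type I interferon targets, such as the Oas, Ifit and Irf7 genes, were higher at 162 µg on both days, as the GTPases were, and by larger medians. Of 24 listed genes 22 were tested, with no probe named Mx1 or Mx2. At day 28 and 162 µg, 17 of 22 rose against 4 of the 7 GTPases, with median changes of 1.53 and 0.83, and all 22 and all 7 were above 0. Oas1a, a sensor of double-stranded RNA, rose by 2.58 (adjusted p = 6.57e-05), and Zbp1, a nucleic acid sensor, by 1.59 (adjusted p = 0.00156). Ifit1, which binds viral RNA, rose by 1.67 (adjusted p = 0.003) and Rsad2 (viperin) by 1.52 (adjusted p = 0.0018). At day 1 and 162 µg, 5 of 22 rose against 0 of 7, with medians of 0.72 and 0.43. Rsad2 and Zbp1 rose 2.30-fold each (adjusted p = 0.00409 and 0.00449), Oas1a 2.26-fold (adjusted p = 0.0343) and Ifit1 2.14-fold (adjusted p = 0.0304). That count was 18 without replicate 3 at 162 µg, and 2 without control replicates 1, 3 or 4 or without 162 µg replicates 1, 2 or 4. At 18 and 54 µg neither group had a gene called on either day. In the day 28 trend 15 of 22 and 3 of 7 were called, and in the day 1 trend 6 of 22 and 0 of 7. These are counts and medians of lists chosen with earlier results known, and no test compares the lists. With the first array alone of the mouse of conflicting labels, 3 type I targets were called at day 28, and 17 without that mouse. The type I trend was not refitted without it.

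**Figure D3:**
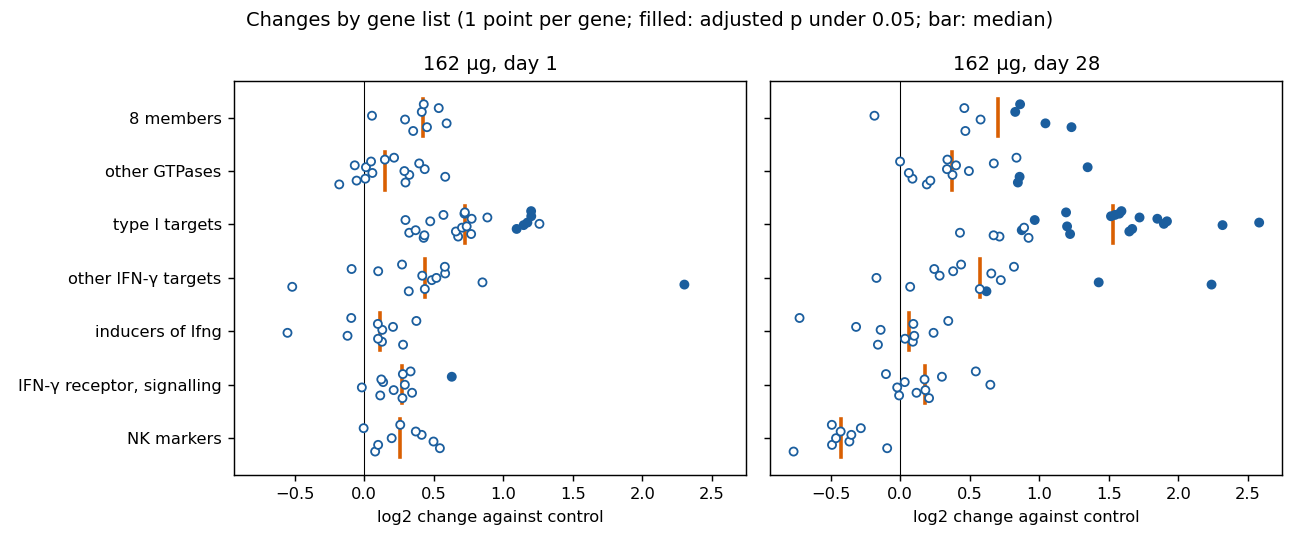
Log2 change at 162 µg against control at day 1 (left) and day 28 (right) for genes of 7 lists, 1 point per gene, filled where the adjusted p was under 0.05, with the list median as an orange bar. The type I targets reach further right than the 8 members on both days, with medians of 0.72 against 0.42 at day 1 and 1.53 against 0.70 at day 28. NK cell markers lie below 0 at day 28 (median -0.43).

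Other genes of the family and pathway were counted from fixed lists. Of 15 other interferon-inducible GTPases tested, 3 rose at 162 µg at day 28 (Gm4951 1.35, Gbp6 0.86 and F830016B08Rik 0.85, adjusted p of 0.00519 to 0.0144) and 0 at day 1, where the change of Gbp6 was 0.58 (adjusted p = 0.0716). Their medians were 0.38 and 0.15. Of 13 other genes induced by interferon gamma, 3 rose at day 28: Cxcl10 (2.24, adjusted p = 0.0018) and Cxcl9 (1.43, adjusted p = 0.0496), chemokines for T cells, and Casp4 (0.62, adjusted p = 0.0223), the mouse caspase 11. At day 1 Cxcl10 alone rose (2.30, adjusted p = 0.000316). Of 11 genes of the receptor and its signalling, 0 rose at day 28, and Ptpn2, a phosphatase that damps JAK signalling, rose at day 1 (0.63, adjusted p = 0.00352). Of 10 inducers of Ifng and their receptors, among them Il18, Il12rb1 and Tbx21, 0 were called on either day, and Stat4, which relays interleukin 12, had the lowest p at day 1 (0.38, adjusted p = 0.343). Of 6 autophagy conjugation genes, which help to target the GTPases to vacuoles, 0 were called, with Atg16l1 at 0.09 on day 1 and 0.10 on day 28. In the marker lists at day 1, Itgax was the 1 macrophage marker of 10 that rose (0.68, adjusted p = 0.027), and no marker of NK cells (Gzmb 0.54), T cells (Cd3g 0.37), endothelium (Emcn 0.58), lung epithelium (Lamp3 0.66), skeletal muscle (Tnnc2 -4.57) or squamous epithelium (Krt14 -0.94) was called.

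Across the 29 mice the GTPases varied together, and Ifng correlated weakly with them. The correlation of each GTPase with the mean of the other 6 was 0.95 for Igtp, 0.94 for Irgm1, 0.91 for Gbp3, 0.88 for Gbp2 and Ifi47, 0.86 for Gbp5 and 0.76 for Iigp1. With the group means removed it was 0.63 to 0.88. For Ifng against the mean of the 7 it was 0.24, and 0.39 with the group means removed. Ifng rests on 1 dim probe, whose repeat arrays differed by up to 0.50, and such noise can lower its correlations. They are therefore not like for like with those of means over several genes. All these correlations are descriptions over mice that share arrays, slides and muscle content, with no test. The mean of the 7 GTPases followed the mean of the 22 type I targets at r = 0.93 (Spearman 0.91), at 0.89 without the 2 mice farthest from the type I median and at 0.83 with the group means removed. Against the mean of the NK markers it was 0.36 (Spearman 0.59), and 0.69 with the group means removed. Ifng followed the NK markers at 0.71 (Spearman 0.68), and at 0.69 with the group means removed. Over the 28 mice without the mouse of conflicting labels, the mean of the 7 GTPases correlated with the type I mean at 0.93, with Ifng at 0.24 and with the NK markers at 0.39.

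**Figure D4:**
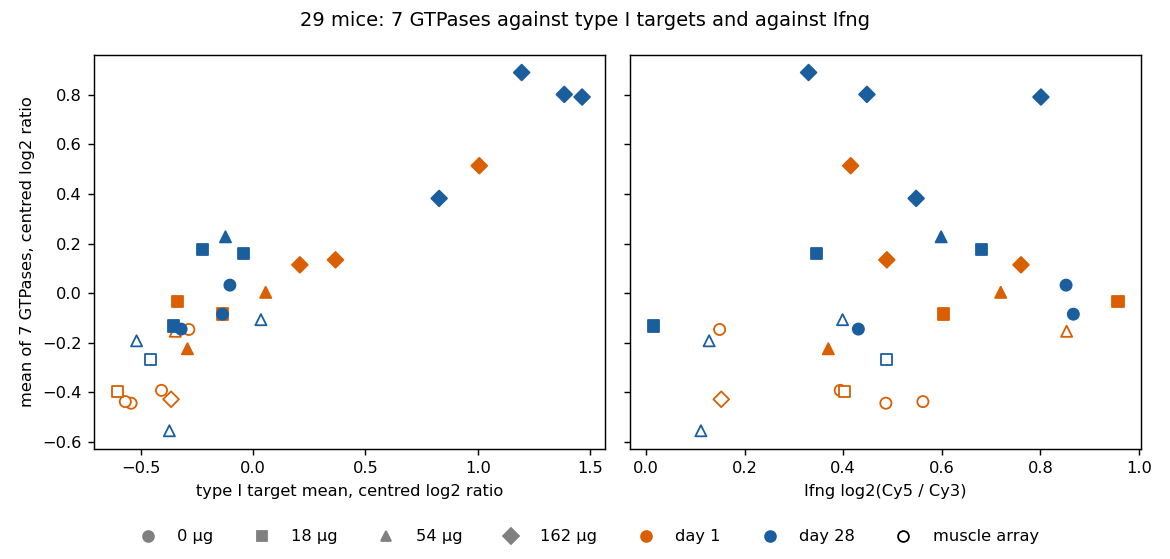
Mean of the 7 GTPases in each of 29 mice, after centring each gene, against the mean of 22 type I interferon targets (left) and against Ifng (right), on log2 scales. Colours are days, symbols are doses, and open symbols are mice with a muscle array. The 4 mice at 162 µg and day 28, with 1 mouse at 162 µg and day 1 among them, lie at the upper right in the left panel (r = 0.93) and spread over Ifng values of 0.33 to 0.80 in the right panel (r = 0.24 over all mice).

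The genes whose pattern over the 29 mice was most like the mean of the 7 GTPases were Ddx58 (r = 0.942), Trim30a (0.94), Rtp4 (0.938), Ifih1 (0.937), Phf11d (0.935), Stat2 (0.933), Dtx3l (0.931) and Parp14 (0.931). Of these Ddx58 (RIG-I), Ifih1 (MDA5), which are sensors of viral RNA, and Rtp4 are on the list of type I targets. With the group means removed they were Ddx58 (0.925), Parp10 (0.895), Stat2 (0.882), Sod3 (0.88), Psmb10 (0.859), Rtp4 (0.856), Ifit3 (0.851) and Tor3a (0.848). Ddx58, Stat2 and Rtp4 are in both.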

How the data were processed

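Lung RNA of 29 mice was measured on 36 two-colour arrays. 7 separate mice were on 2 arrays, which were averaged as 1 replicate. The deposited scanner files come from Agilent Feature Extraction 11.0.1.1, per the file headers, and give an intensity for spot and background in either dye. The authors' deposited values are log2 ratios. How they were normalized is not given in the sources used here, and they correlated with the ratios computed here at 0.986 to 0.997 per array.

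Ratios were computed with R 4.3.3 and limma 3.58.1 (data.table, version 1.17.8; figures with matplotlib): normexp background correction with an offset of 50 on median signals, loess within arrays, 1 probe of highest mean intensity per gene. Probes were named through RefSeq accessions of GRCm38.p6. A gene was tested where at least 3 mice of some group had all their arrays above background in Cy5. The 8 group means were fitted together over the 29 mice (21 residual degrees of freedom), two-sided, with Benjamini-Hochberg adjustment over 23256 genes and a threshold of 0.05. The dose trend is the slope over equally spaced dose groups. Per array 48.6% to 62.2% of probes were above background, and the number of arrays limits the precision. The labels speak of more mice per group for the RNA than the 3 or 4 analysed here.

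The members and all gene lists were chosen with earlier results of these data known. All 8 members are named, and from each other list up to 4 called genes of lowest p at 162 µg and day 1, or else the 1 of lowest p. Other called genes were named after their values were seen. Likeness names the 8 highest correlations. The fit of group means was tested on simulated log2 ratios with independent normal noise and no muscle arrays. For 162 µg at day 28, 45 of 50 genes changed by 1 on the log2 scale were recovered among 23256. At day 1 it was 42 of 50. The normalization, promoter search and correlations were not tested on simulated data. Alternatives tried were the background correction, normalization, filter, probe choice, groups in the fit, repeat arrays, slide, array weights, robust spread, muscle arrays, the mouse of conflicting labels and leaving out each mouse.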

Additional observations from a re-analysis of the deposited data

Results flagged for a closer look

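In groups of 4 mice, 3 of 40 member-by-group sets held a mouse whose gap to its nearest neighbour, as a share of the group's range, was above Dixon's critical value of 0.829, and chance gives about 1 in 20 such sets. In the group at 162 µg and day 28, replicate 1, the mouse of conflicting labels, was low for Gbp3 (2.39, with the next mouse at 2.99) and for Irgm1 (1.01, next 1.34). In the group at 162 µg and day 1, replicate 3, measured on a muscle array, was low for Ifi47 (1.87, next 2.82).

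Ifng at 18 µg lay on opposite sides of the control mean on the 2 days: all 3 treated mice were above it at day 1 and all 4 below it at day 28, a difference of -0.59. Neither day's change was called (adjusted p = 0.912 and 0.892), the mice overlapped the controls on both days, and the difference was not tested.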

How the results depend on the processing

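Main counts of members called were 4 at 162 µg at day 28, 3 in its trend, 4 for 162 against 54 µg at day 28, and 0 elsewhere, with 5 type I targets at day 1 and 17 at day 28. With median centring the counts were 2 and 1 at day 28 (comparison and trend) and 3 type I targets at day 1, and the authors' values also gave 3. With only the groups compared, 162 against 54 µg gave 1 member, and day 1 gave 1 type I target. With the mouse as a random block (correlation -0.034) day 1 gave 1 member, its trend 1, and 8 type I targets. With array quality weights day 1 gave 6, its trend 5, 162 against 54 µg 7, and 21 type I targets. Without muscle arrays day 1 gave 1, its trend 1, and 162 against 54 µg 0, and with muscle and squamous covariates the last gave 2. With the conflicting mouse in day 1, 9 type I targets were called at day 1. With its first array alone, an alternative chosen after seeing the data, the counts were 1 at day 28, 0 in the trend, 1 against 54 µg and 3 type I targets. The share of all genes called is not given for these alternatives or for the fits that leave out a mouse. A larger or smaller count is therefore not a result about the members alone.

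Leaving out each mouse gave 0 to 3 members at 162 µg at day 1 and in its trend, 1 to 4 at day 28, 0 to 4 in its trend, 3 to 6 against 54 µg, 2 to 18 type I targets at day 1 (18 without 162 µg replicate 3) and 13 to 17 at day 28. In all other comparisons it gave 0 to 0. Of 23 alternatives at 162 µg and day 28, Gbp3 and Gbp5 kept their calls in 22 each, Irgm1 in 15 and Igtp in 10. The fit without the mouse of conflicting labels is counted there both under that name and as a left-out mouse. All 4 genes kept their calls in it. Alternatives were run for the members in all comparisons. For the type I targets and the genes picked by lowest p at day 1 they were run at 162 µg against control only. Gm4951, F830016B08Rik, Cxcl9, Casp4, Cd68 and Siglec1 were not put through them. Over the genes covered no called value changed sign. 123 of 3994 values, none called, did.

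No paired analysis was possible because replicate numbers only name mice in the order of the labels. Mice that share a slide set are compared in the results, within sets and with the set as a block. Signal over background limits Ifng most, which was below background on 4 arrays. With 3 control mice at day 28, calls near the threshold depend on single mice.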

Other observations

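Some genes correlated more closely with the GTPases once the group means were removed than over the raw values. Sod3, an extracellular superoxide dismutase, correlated with the mean of the 7 GTPases at 0.88 with the group means removed but at 0.594 over the raw values, and Mcm4, a subunit of the replicative helicase, at 0.844 and 0.486. The members also differed in how tightly they were tied to each other. Within groups the highest pair was Gbp2 with Ifi47 (0.86) and the lowest among GTPases was Gbp3 with Iigp1 (0.43), while Iigp1 with Ifng was at -0.09. These are descriptions over 29 mice, with no test. With the group means removed, mice of a group still differ in muscle content, and no correlation without muscle arrays is given here.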
